A study of Mus musculus with 39 samples.

Results

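Livers of mice whose hepatocytes lack Bmal1 (BLKO, genotype Alb-Cre+ Bmal1fl/fl) were compared between circadian time 16 (CT16) and circadian time 4 (CT4), with the mice breathing 21% oxygen. All libraries that the labels put in these groups were taken, 3 at each time, which makes 6 of the 39 samples in the series. The mice were C57BL/6, 3 to 5 months old, kept for 2 weeks in 12 h of light and 12 h of darkness and fed freely. On the day of the experiment the lights did not come on, and the 4 h under 21% oxygen began at CT4 or at CT16. CT4 and CT16 are therefore used here as names of the groups, and they give the start of the 4 h rather than its end. The series also holds Alb-Cre control livers and livers without Hif1a in hepatocytes, with Alb-Cre carried by the controls as well. These genotypes and BLKO were also kept at 6% oxygen. A double knockout, which was left out, was kept at 21% oxygen only. Albumin-driven Cre is aimed at hepatocytes, and whether all other cells of the liver keep Bmal1 was not tested. The labels do not state that each library came from its own mouse. The p-values measure the spread between samples within groups, estimated over all 36 fitted libraries and not over these 6 alone. The tissue was sequenced in bulk, where fewer cells of a type and less RNA per cell cannot be told apart.

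BMAL1 pairs with CLOCK or NPAS2 and switches on the Per, Cry and REV-ERB genes, whose proteins feed back on BMAL1 and its partners, and this loop gives liver genes a daily rhythm. A liver whose hepatocytes lack BMAL1 still receives daily signals from feeding, adrenal hormones, body temperature and the other tissues. Metallothioneins, small proteins that bind zinc and copper, respond to metals, glucocorticoids and inflammation. The acute phase response, driven by interleukin 1 and interleukin 6 through NF-kB and STAT3, raises the output of plasma proteins such as fibrinogen.

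The 6 libraries held 2125679, 2466753 and 3292739 counts at CT4 and 5196957, 3490712 and 3338313 counts at CT16 (A, B and C in each case), so the CT16 side was the more deeply sequenced. Of 9483 genes tested, 208 (2.19%) were called at an adjusted p under 0.05 by edgeR's quasi-likelihood test, 81 higher at CT16 (0.854%) and 127 lower (1.34%). Changes are log2 fold changes of CT16 over CT4 ± SE, where 1 stands for a 2-fold change, and levels are in CPM, which puts counts of libraries of unequal depth on the same scale. The change was at least 2-fold for 49 of the lower and 35 of the higher genes. In 203 of the 208 genes the 3 libraries of one time all lay above the 3 of the other, and 2023 of all tested genes were split in this way, 945 with CT16 higher (9.97%) and 1078 with CT16 lower (11.4%). The first principal component of the 6 libraries, with 36.7% of the variance, placed CT4 at -32.5, -16.5 and -9.28 and CT16 at 16.4, 20.7 and 21.3. The CT4 libraries were thus the more scattered, with A at one end.

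How many genes were called depended on single libraries. Without CT4 A, B or C the count was 75, 109 and 130, and without CT16 A, B or C it was 143, 117 and 106. A core of 47 genes, 33 lower and 14 higher at CT16, was called in all 6 of these fits, and 27 of the 208 were called in none. Genes of this core are the ones described most fully here, and where a named gene lies outside it, the libraries on which its call rested are given.

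**Figure D1:**
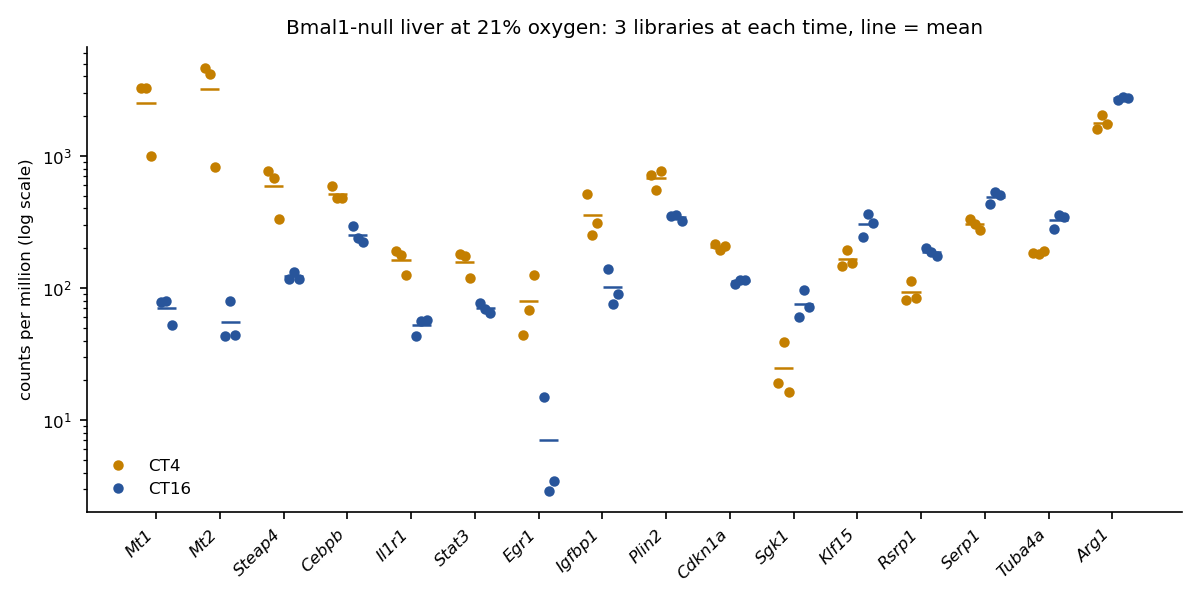
Levels of 16 genes in each of the 6 Bmal1-null livers at 21% oxygen, in CPM on a log axis, with a point per library and a line at the mean of the 3 libraries. All 16 genes keep the CT4 and CT16 libraries apart, which their choice among the called genes largely settled. Of the 208 called genes 203 keep the times apart, beside 21.3% of all tested genes. For Mt1 the CT4 libraries lie between 999 and 3292 and the CT16 libraries between 52.8 and 79.0.

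The metallothioneins showed the largest falls of all called genes. Mt1 stood at 3276, 3292 and 999 CPM in the CT4 libraries A, B and C and at 78.4, 79.0 and 52.8 CPM at CT16. Mt2 stood at 4623, 4163 and 829 CPM at CT4 and at 43.4, 79.9 and 43.9 CPM at CT16. CT4 C was the lowest CT4 library for both genes and still lay over 10 times above the highest CT16 library. Mt1 fell by 5.17 ± 0.65 (adjusted p = 1.48e-05) and Mt2 fell by 5.85 ± 0.77 (adjusted p = 1.9e-05), and both calls held without any 1 library. At 6% oxygen the same genotype held 1522 ± 202 CPM of Mt1 at CT4 and 1383 ± 144 CPM at CT16 (SD, n = 3), a difference of -0.14 ± 0.54 (adjusted p = 0.944). The time change at 21% minus that at 6% was -5.03 ± 0.82 for Mt1 (adjusted p = 0.00325) and -5.62 ± 0.94 for Mt2 (adjusted p = 0.00363). In Alb-Cre livers at 21% oxygen Mt1 averaged 312 ± 321 CPM at CT4 and 156 ± 138 CPM at CT16. The time change in Bmal1-null liver minus that in those controls was -4.17 ± 0.81 for Mt1 (adjusted p = 0.00509, and 0.0564 without Alb CT16 A) and -5.30 ± 0.95 for Mt2 (adjusted p = 0.00162). The spread among the Alb-Cre libraries was wide, with Mt1 at 682, 104 and 149 CPM at CT4 and 315, 92.4 and 62.2 CPM at CT16, where A was the highest library each time.

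Mt1 and Mt2 lie side by side on chromosome 8 (GRCm38, Mt1 at 94179082 to 94180327 and Mt2 at 94172664 to 94173568, both on the plus strand). Their promoters are shown because these neighbours had the largest falls of the comparison. The stretches run from 250 bases before to 50 after the RefSeq start (GRCm38.p6, chr8:94178839-94179138 for Mt1 and chr8:94172368-94172667 for Mt2). Capitals mark the metal response element core, the letters TGCACNC or TGCGCNC on either strand, which the zinc-sensing factor MTF1 is known to bind.
Mt1: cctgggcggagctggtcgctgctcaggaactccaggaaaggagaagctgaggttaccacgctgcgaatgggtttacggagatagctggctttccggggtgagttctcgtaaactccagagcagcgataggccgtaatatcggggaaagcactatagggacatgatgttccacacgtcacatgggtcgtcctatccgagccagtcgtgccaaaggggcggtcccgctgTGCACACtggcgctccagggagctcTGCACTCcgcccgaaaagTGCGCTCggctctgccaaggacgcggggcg
Mt2: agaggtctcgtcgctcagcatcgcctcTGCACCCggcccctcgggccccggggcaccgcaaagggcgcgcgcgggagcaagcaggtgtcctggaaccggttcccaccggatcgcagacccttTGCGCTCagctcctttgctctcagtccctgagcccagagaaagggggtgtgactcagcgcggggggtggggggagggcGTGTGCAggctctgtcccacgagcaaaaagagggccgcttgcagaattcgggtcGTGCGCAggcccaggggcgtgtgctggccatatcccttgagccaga
The Mt1 stretch held TGCACNC in 2 places and TGCGCNC in 1, and the Mt2 stretch held each in 2 places. Of these, 2 places in Mt1 and 1 in Mt2 lay in the 50 bases after the RefSeq start. The start used for Mt2 differs from the gene start given above, since the stretch ends at 94172667 and the gene begins at 94172664. Among 32851 RefSeq mouse promoters of the same length, 12.6% held TGCACNC and 15.4% held TGCGCNC at least once, and 1.58% and 4.2% held them at 2 or more places. These are letter matches and say nothing of occupancy. Of the 9 tested genes listed for metallothioneins and zinc handling, 3 were lower at CT16 and none higher, beside 1.34% lower of all tested genes. The median was -0.22 beside -0.01 over all tested genes. The third was Slc39a14 (ZIP14), the importer that carries zinc and iron into hepatocytes in inflammation. It stood at 176, 201 and 141 CPM at CT4 and 84.8, 97.0 and 109 CPM at CT16 and fell by 0.83 ± 0.16 (adjusted p = 0.0036).

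Several genes that transmit or restrain cytokine signals were lower at CT16. Of 17 tested STAT3 and NF-kB feedback genes, 7 were called lower and 0 higher, 12 had a negative value, and the median was -0.87. Over all tested genes 1.34% were called lower, and the median was -0.01. The list was written with earlier results of these data known. The transcription factor Cebpb, which drives acute phase genes, stood at 592, 478 and 484 CPM at CT4 and 292, 238 and 225 CPM at CT16, and it fell by 1.04 ± 0.13 (adjusted p = 1.9e-05). Stat3, the transcription factor activated by interleukin 6, was at 180, 176 and 118 CPM at CT4, against 77.5, 68.9 and 64.4 CPM at CT16 (-1.16 ± 0.23, adjusted p = 0.0036). For Il1r1, the receptor of interleukin 1, the CT4 libraries held 189, 178 and 125 CPM and the CT16 libraries 43.1, 56.2 and 56.9 CPM (-1.66 ± 0.31, adjusted p = 0.00224). In all of these the times did not overlap, and the calls of Cebpb, Stat3 and Il1r1 held without any 1 library. Beyond the list, the adaptor Myd88, which carries the signal of interleukin 1 and Toll-like receptors, fell by 0.91 ± 0.18 (32.7, 31.9 and 24.8 CPM to 14.4, 14.2 and 18.8 CPM, adjusted p = 0.0042). The tumour necrosis factor receptor Tnfrsf1a fell by 0.72 ± 0.15 (adjusted p = 0.0054, and 0.0583 without CT4 B).

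The other called members of that list rested more on single libraries. Bcl3, a partner of NF-kB, fell by 1.16 ± 0.24 (112, 89.5 and 86.5 CPM to 43.4, 39.1 and 45.9 CPM, adjusted p = 0.00678, and 0.054 without CT4 A). Cxcl1, a neutrophil attractant, stood at 15.4, 38.0 and 9.84 CPM at CT4 and 4.42, 1.45 and 2.31 CPM at CT16 (-2.82 ± 0.68, adjusted p = 0.0216). Its call was lost without CT4 B (0.188), CT16 B (0.0888) or CT16 C (0.0802). Tifa, an adaptor of NF-kB signalling, overlapped between the times, since CT4 C held 3.28 CPM and CT16 A held 4.42 CPM, and its call (adjusted p = 0.0235) was kept only without CT4 C. For the adhesion molecule Icam1 (-1.15 ± 0.32, adjusted p = 0.049) the call was kept only without CT16 A among those fits, and it was also lost with RLE scaling (0.0519), without the low-count filter (0.0573) and in the fit on the 6 libraries (0.066). The list's count of 7 became 4 without CT4 A, CT4 B, CT16 B or CT16 C. Of the listed neutrophil markers, 4 have rows and 1, S100a9, was tested. The summed level of the 4 was 3.57 to 8.86 CPM at CT4 and 0.576 to 1.84 CPM at CT16, from 61 counts in all 6 libraries, and none of the 4 was at 0 throughout. S100a9 held 10, 11 and 7 counts at CT4 and 4, 3 and 1 at CT16, a change of -2.41 beside -2.18 in Alb-Cre liver at 21% oxygen. S100a8 overlapped between the times, with 4, 1 and 1 counts at CT4 and 2, 2 and 0 at CT16. The part of such cells in these results was not tested.

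Some genes of the acute phase list, which holds plasma proteins and a few membrane proteins, were lower as well. Of 26 tested members 6 were lower at CT16 and 0 higher, with a median of -0.51, and 23 of the 26 had a negative value. The share called lower over all tested genes was 1.34%, with a median of -0.01. Steap4, a metalloreductase induced by interleukin 6, had the strongest support, at 763, 681 and 331 CPM at CT4 against 117, 133 and 117 CPM at CT16 (-2.27 ± 0.37, adjusted p = 0.000411, held without any 1 library). Serpina3n, a protease inhibitor with close paralogs, stood at 1192, 1231 and 698 CPM at CT4 and 452, 444 and 434 CPM at CT16 (-1.23 ± 0.27, adjusted p = 0.0091, 0.0588 without CT4 A and 0.0527 without CT4 B). In both genes CT4 C was the lowest of its group and still above all CT16 libraries. The monocyte receptor Cd14 fell by 1.88 ± 0.44 (11.7, 8.17 and 2.98 CPM to 2.02, 2.03 and 1.73 CPM, adjusted p = 0.0183), a call that was kept only without CT4 C, with an adjusted p up to 0.173 in the other 5 fits and 0.0587 when the 6 libraries alone were fitted.

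The 3 chains of fibrinogen, the clotting protein, were also called lower, and Fgb and Fgg were the most abundant of the called members. Fgb stood at 11956, 12413 and 9681 CPM at CT4, against 6142, 6776 and 6165 CPM at CT16 (-0.84 ± 0.19, adjusted p = 0.0159). Fgg stood at 7643, 7482 and 5971 CPM and at 3863, 4060 and 4167 CPM (-0.80 ± 0.20, adjusted p = 0.0237). Fga stood at 651, 564 and 549 CPM and at 324, 352 and 278 CPM (-0.89 ± 0.24, adjusted p = 0.0424). None of the chains overlapped between the times, yet each call was fragile: Fgb was lost without CT4 A (0.077), CT4 B (0.0693), CT16 A (0.066) or CT16 C (0.0676). Fgg was kept only without CT4 C (0.109 at most in the others), and Fga was lost in all 6 fits (0.0712 to 0.166), without the low-count filter (0.0507) and with a replicate block (0.0503). The count of 6 acute phase genes became 1 without CT4 A or CT4 B, 2 without CT16 A or CT16 C and 3 without CT16 B.

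The fibrinogen genes form a cluster on chromosome 3 (GRCm38, Fgg at 83007724 to 83015049, Fga at 83026076 to 83033627 and Fgb, on the minus strand, at 83040141 to 83049863). Their promoters are shown because the 3 genes moved together, and capitals mark letters tied to STAT3 and interleukin 6, CTGGGAA or TTCNNNGAA on either strand. The stretches are chr3:83025903-83026202 for Fga, chr3:83049814-83050113 for Fgb and chr3:83007474-83007773 for Fgg (GRCm38.p6, RefSeq).
Fga: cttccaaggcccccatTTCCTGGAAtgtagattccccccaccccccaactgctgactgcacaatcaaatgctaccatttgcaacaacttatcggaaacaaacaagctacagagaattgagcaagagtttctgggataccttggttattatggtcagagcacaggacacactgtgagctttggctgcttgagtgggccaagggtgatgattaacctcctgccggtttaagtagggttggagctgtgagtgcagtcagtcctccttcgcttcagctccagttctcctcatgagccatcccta
Fgb: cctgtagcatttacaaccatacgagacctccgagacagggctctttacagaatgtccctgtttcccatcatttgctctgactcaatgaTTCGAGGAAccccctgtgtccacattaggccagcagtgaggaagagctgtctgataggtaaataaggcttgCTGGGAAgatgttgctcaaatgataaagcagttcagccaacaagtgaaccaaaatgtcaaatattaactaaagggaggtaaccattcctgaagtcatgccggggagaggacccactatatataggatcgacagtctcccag
Fgg: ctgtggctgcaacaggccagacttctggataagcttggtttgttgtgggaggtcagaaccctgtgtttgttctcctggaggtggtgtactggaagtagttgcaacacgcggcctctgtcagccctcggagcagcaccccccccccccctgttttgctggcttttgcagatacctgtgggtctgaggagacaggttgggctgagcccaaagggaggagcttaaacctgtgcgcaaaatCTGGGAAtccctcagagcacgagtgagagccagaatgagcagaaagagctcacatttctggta
Fga held TTCNNNGAA in 1 place, Fgb held each of the letter strings in 1 place, and Fgg held CTGGGAA in 1 place. At least 1 match to CTGGGAA was present in 11.1% of the 32851 promoters, and TTCNNNGAA in 8.3%. At that frequency a match is common, and it marks no site by itself.

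Serum amyloid A, the most inducible acute phase protein of mouse liver, varied widely within each time. Saa1 stood at 2620, 2030 and 252 CPM at CT4, against 816, 115 and 50.5 CPM at CT16 (-2.31 ± 1.24, adjusted p = 0.386). Saa2, a near-identical copy that may share reads with Saa1, ran from 1800 to 121 CPM at CT4 and from 431 to 16.2 CPM at CT16. CT16 A thus held more Saa1 than CT4 C, so the groups overlapped. Steap4, Stat3 and Cebpb, given above as genes without overlap, were by that fact lower in CT16 A than in all CT4 libraries.

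**Figure D2:**
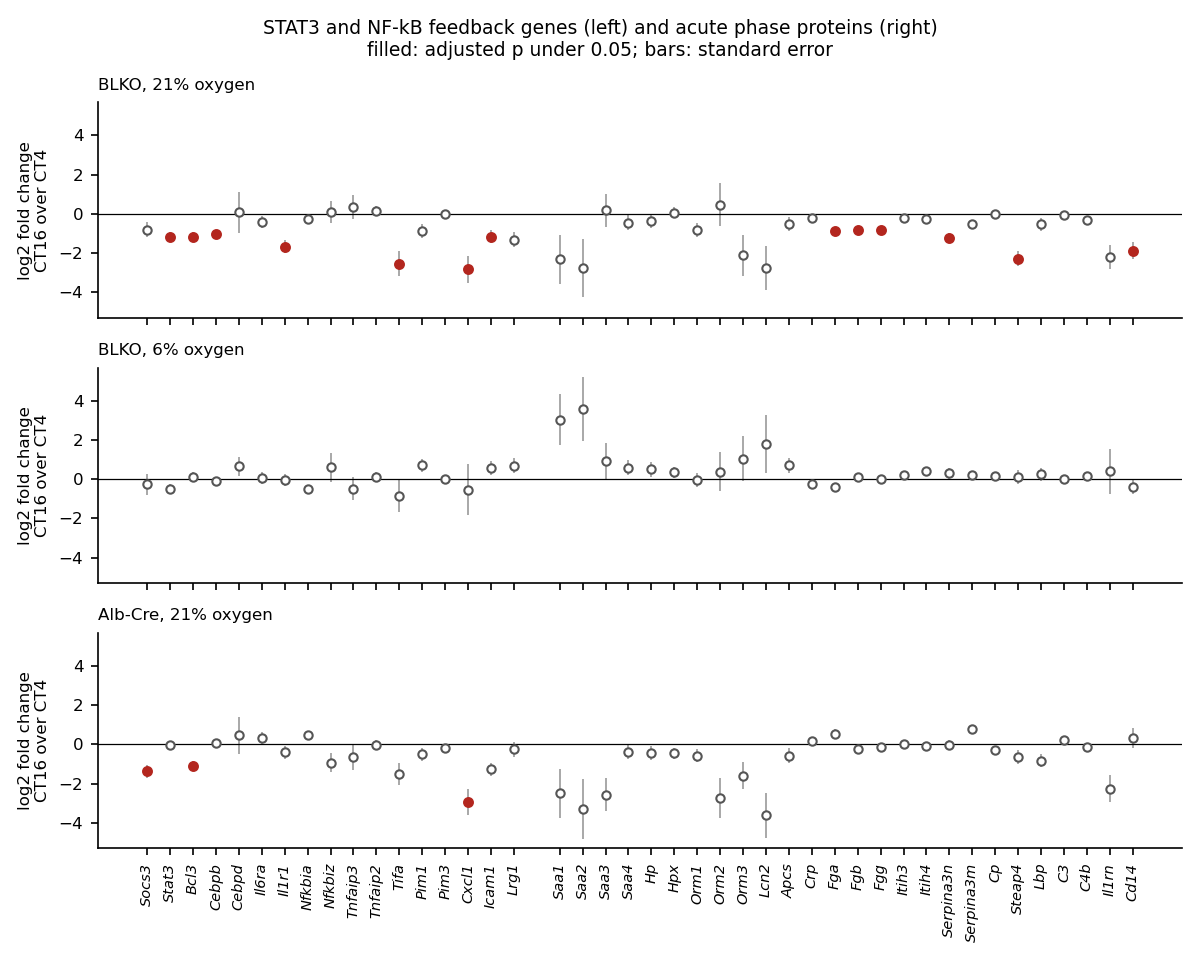
Log2 fold changes of CT16 over CT4, with the standard error, for all tested STAT3 and NF-kB feedback genes and acute phase proteins in Bmal1-null liver at 21% and 6% oxygen and in Alb-Cre liver at 21% oxygen, with filled points called at an adjusted p under 0.05. At 21% oxygen 7 and 6 members of the lists were called lower in Bmal1-null liver, and at 6% oxygen no member was called. Of all tested genes, 1.34% were called lower in Bmal1-null liver at 21% oxygen.

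Beside these values, the medians of the feedback list were 0.03 in Bmal1-null liver at 6% oxygen and -0.40 in Alb-Cre liver at 21%, where Socs3, Bcl3 and Cxcl1 were called lower. The acute phase medians were 0.26 and -0.42, with 0 of 26 called by edgeR in either (2 and 9 at an unadjusted p under 0.05, 0 and 2 called by DESeq2). For Steap4 the time change at 21% minus that at 6% was -2.39 ± 0.52 (adjusted p = 0.0196), a call lost without CT4 21% A (0.0768), CT4 21% B (0.0514), CT16 21% A (0.0504) or CT4 6% C (0.0715). For Cebpb the change minus that in Alb-Cre liver was -1.12 ± 0.19 (adjusted p = 0.00104). Among the called members of both lists, only Cebpb and Fga had a called difference from Alb-Cre liver. Stat3, Il1r1, Steap4, Fgb, Fgg and the other called members did not. Between the oxygen levels the difference was called for Steap4, Cebpb and Serpina3n, and for no other called member.

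Immediate early genes, which cells switch on within minutes of a stimulus, gave 3 lower and 0 higher of 21 tested, with a median of -0.60. Among all tested genes 1.34% were called lower. Egr1, a zinc finger transcription factor, stood at 43.9, 68.3 and 125 CPM at CT4 and at 14.9, 2.90 and 3.46 CPM at CT16 and fell by 3.36 ± 0.44 (adjusted p = 1.9e-05, held without any 1 library). Jund, a subunit of AP-1, was at 290, 219 and 150 CPM and at 121, 97.9 and 110 CPM (-0.998 ± 0.17, adjusted p = 0.000826). Among the CT4 libraries, C was the highest for Egr1 and the lowest for Jund, and neither gene overlapped between the times. Fos, its partner in AP-1, held 3, 6 and 10 counts at CT4 and 2, 0 and 0 at CT16 (adjusted p = 0.0208), a low count whose call was lost without CT4 B (0.0547), CT4 C (0.0997), CT16 B (0.0769) or CT16 C (0.0794). At 6% oxygen 3 of the 21 were also called lower, and Egr1 averaged 10.9 ± 1.16 CPM at CT4, against 7.83 ± 3.48 CPM at CT16 (SD, n = 3).

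None of the 10 tested core clock genes fixed for naming was called by edgeR, while 5 had an unadjusted p under 0.05 and DESeq2 called 1, Nr1d1. Of all tested genes, edgeR called 2.19%. Arntl, the gene deleted in hepatocytes, stood at 6.07, 6.95 and 6.26 CPM at CT4 and 10.5, 11.3 and 13.9 CPM at CT16 (0.87 ± 0.30, adjusted p = 0.13). Its libraries did not overlap, but the change missed the threshold, and since counts are per gene, transcripts without the deleted part are counted too. The count table thus gives no check of the deletion. Clock, the partner of BMAL1, held 3 to 10 counts per library and was not tested. Npas2, its paralog, stood at 30.8, 16.8 and 18.8 CPM and at 9.02, 12.2 and 9.81 CPM (-1.09 ± 0.32, adjusted p = 0.0608, or 0.0418 when the 6 libraries alone were fitted). The repressor Per2 stood at 6.54, 7.36 and 7.16 CPM and at 12.5, 20.6 and 22.8 CPM, again without overlap (1.37 ± 0.48, adjusted p = 0.132, or 0.0196 with those 6 libraries alone).

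Cry1 and Dbp marked the contrast with control liver. Cry1, a repressor of the loop, was at 74.3, 69.1 and 63.8 CPM at CT4 and 67.5, 73.0 and 80.3 CPM at CT16 (0.09 ± 0.17), and its time change minus that of Alb-Cre liver was -2.65 ± 0.28 (adjusted p = 3.74e-07). Dbp, an output transcription factor, was at 9.81, 10.6 and 12.8 CPM and at 16.4, 12.5 and 6.93 CPM. Its time change lay 3.94 ± 0.62 above that of the controls (adjusted p = 0.000445), and that of Nr1d1 (REV-ERB alpha) lay 3.14 ± 0.55 above (adjusted p = 0.00149). Nr1d1 itself overlapped between the times in Bmal1-null liver, at 6.54, 23.3 and 9.54 CPM against 6.99, 6.08 and 2.89 CPM (-1.25 ± 0.40, adjusted p = 0.0963, and 0.037 by DESeq2). The remaining genes fixed for naming had small or uncertain changes: 0.25 ± 0.25 for Per1, 1.25 ± 0.51 for Per3, 0.02 ± 0.16 for Cry2 and 0.34 ± 0.88 for Nr1d2, which held under 1.2 CPM in every library. Of 11 genes driven by BMAL1, 1 was higher, and of 6 repressed by REV-ERB, 0 were called by edgeR or DESeq2 and 3 had an unadjusted p under 0.05 (medians 0.25 and -0.19).

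**Figure D3:**
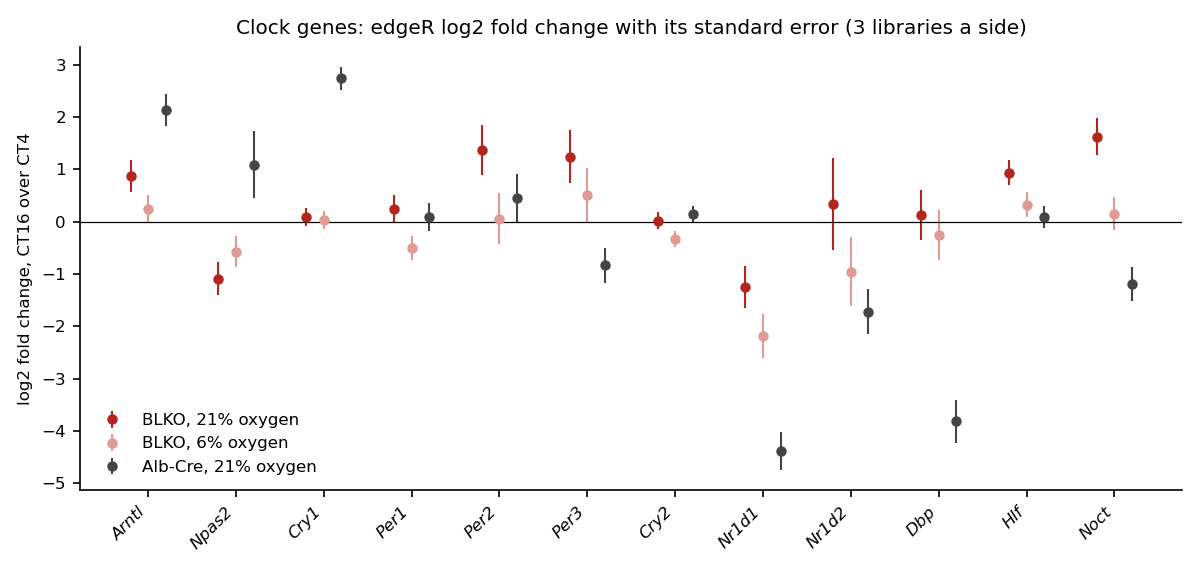
Log2 fold changes of CT16 over CT4 with the standard error for 12 clock genes in Bmal1-null liver at 21% and 6% oxygen and in Alb-Cre liver at 21% oxygen, with 3 libraries at each time. Cry1 and Dbp sit near 0 in Bmal1-null liver (0.09 and 0.12 at 21% oxygen), and Noct lies at 1.63.

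Some outputs did rise. Noct (nocturnin), a rhythmic phosphatase of nicotinamide cofactors, stood at 6.07, 11.9 and 5.67 CPM at CT4 and 26.1, 20.0 and 25.7 CPM at CT16. It rose by 1.63 ± 0.36 (adjusted p = 0.011, 0.0746 without CT4 A and 0.0857 without CT4 C), and its time change lay 2.82 ± 0.48 above that in Alb-Cre liver (adjusted p = 0.00112), where the value was -1.19 ± 0.32. Hlf, a relative of Dbp, rose by 0.94 ± 0.24 (10.7, 11.0 and 5.67 CPM to 18.2, 13.9 and 18.8 CPM, adjusted p = 0.0313). That call was lost without CT4 A (0.0563), CT4 C (0.233), CT16 A (0.0919) or CT16 C (0.102), and with the fit on the 6 libraries (0.0796). Noct and Hlf kept the times apart in all 6 libraries.

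Genes that respond to glucocorticoids moved in both directions. Of 15 tested, 2 rose (Sgk1 and Tat) and 3 fell (Cdkn1a, Mt1 and Mt2), with a median of 0.03. The shares over all tested genes were 0.854% higher and 1.34% lower. Sgk1, a kinase that regulates ion transport, stood at 19.1, 39.2 and 16.4 CPM at CT4, against 60.6, 96.1 and 71.3 CPM at CT16 (1.62 ± 0.26, adjusted p = 0.000411). At 6% oxygen its change was -0.05, and the difference of 1.67 ± 0.36 passed the test (adjusted p = 0.0196), though not without CT4 21% A (0.079), CT4 21% C (0.0603), CT16 21% B (0.0614) or CT4 6% C (0.0647). Outside this list, Klf15, a transcription factor of amino acid breakdown, rose by 0.89 ± 0.16 (147, 195 and 154 CPM to 244, 365 and 309 CPM, adjusted p = 0.00155). The list member Tat, which breaks down tyrosine, was at 1460, 1314 and 877 CPM and at 1805, 2260 and 2367 CPM (0.82 ± 0.18, adjusted p = 0.0115, 0.0913 without CT4 C and 0.0642 without CT16 C). Arg1, the last enzyme of the urea cycle and also outside the list, rose by 0.61 ± 0.12 (1601, 2030 and 1744 CPM to 2653, 2776 and 2759 CPM, adjusted p = 0.0036).

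Cdkn1a encodes p21, an inhibitor of the cell cycle, and moved against the control pattern. It stood at 214, 193 and 209 CPM at CT4 and at 108, 114 and 115 CPM at CT16 and fell by 0.87 ± 0.16 (adjusted p = 0.00224), whereas Alb-Cre livers held 11.4 ± 1.07 CPM at CT4 and 46.9 ± 10.7 CPM at CT16 (SD, n = 3). The difference between the genotypes was -2.92 ± 0.26 (adjusted p = 8.27e-09). Igfbp1, which binds insulin-like growth factors and which insulin represses, stood at 519, 251 and 309 CPM at CT4 and 138, 75.9 and 89.5 CPM at CT16. It fell by 1.82 ± 0.34 (adjusted p = 0.00251), and its time change minus that of the controls was -2.83 ± 0.48 (adjusted p = 0.00112). Among 15 tested regulators of insulin, FOXO and mTOR signalling it was the 1 called gene, with a list median of -0.05.

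Several genes of stored and burned fat were lower at CT16, though few members of their pathway passed the test. Plin2, which coats lipid droplets, stood at 722, 553 and 775 CPM at CT4, against 351, 358 and 320 CPM at CT16 (-0.995 ± 0.19, adjusted p = 0.00373). Pnpla2, the triglyceride lipase ATGL, fell by 0.69 ± 0.13 (adjusted p = 0.00313), and the peroxisomal membrane protein gene Pxmp4 fell by 1.04 ± 0.17 (274, 244 and 281 CPM to 108, 136 and 146 CPM, adjusted p = 0.000411). These calls of Plin2, Pnpla2 and Pxmp4 held without any 1 library. Of 36 tested genes that burn fatty acids or are targets of PPARA, 3 were lower and 0 higher, with a median of -0.07. Beside this, 1.34% of all tested genes were called lower. Angptl4, a called member, is an inhibitor of lipoprotein lipase (-0.91 ± 0.25, adjusted p = 0.0483), whose call was lost in all 6 fits without 1 library (0.0769 to 0.205), with RLE scaling (0.0534) and without the low-count filter (0.0573). In Alb-Cre liver the changes of Pxmp4 and Angptl4 were 1.14 and 1.11 and were called higher, and the genotypes differed by -2.18 ± 0.24 and -2.03 ± 0.36 (adjusted p = 7.16e-07 and 0.00149).

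Higher at CT16 were 2 lipogenic regulators. Srebf1, the transcription factor SREBP1 that drives fatty acid synthesis, stood at 79.4, 79.7 and 103 CPM at CT4 and 157, 152 and 163 CPM at CT16 (0.84 ± 0.23, adjusted p = 0.0424), but the call was lost in all 6 fits without 1 library (0.0515 to 0.163) and with a replicate block (0.0503). Its time change in Alb-Cre liver was -1.22, and the difference of 2.06 ± 0.32 was called (adjusted p = 0.0004) and held without any of the 12 libraries. Mid1ip1, an activator of acetyl-CoA carboxylase, stood at 23.4, 38.0 and 40.6 CPM and at 86.5, 110 and 97.9 CPM (1.51 ± 0.39, adjusted p = 0.0313). That call was kept only without CT16 A (0.0635 to 0.162 in the others), and its difference from the controls of 2.68 ± 0.54 was called (adjusted p = 0.00844). Of 18 tested genes of fatty acid synthesis 1 was higher, Srebf1 itself, and 0 lower (median 0.13), so edgeR called no other member of the list. DESeq2 called 1 higher and 1 lower. Lpin1, a phosphatidate phosphatase, fell by 1.005 ± 0.23 (172, 263 and 358 CPM to 88.7, 153 and 156 CPM, adjusted p = 0.0142, 0.136 without CT4 C, 0.103 without CT16 A and 0.0544 in the fit on the 6 libraries).

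Chaperones of the cytosol were mostly positive. Of 21 tested heat shock chaperones 3 were higher, beside 0.854% of all tested genes, and 0 lower, with a median of 0.45. In 10 of the 21 CT16 lay above CT4 in every library, beside 9.97% of all tested genes. The list was also positive in Alb-Cre liver at 21% oxygen, with a median of 0.26 and 0 called by edgeR. There 10 members had an unadjusted p under 0.05, against 8 in Bmal1-null liver at 21%. In Bmal1-null liver at 6% oxygen 2 were called higher, with a median of 0.10. Fkbp4, a co-chaperone of steroid receptors, stood at 243, 237 and 257 CPM at CT4, against 362, 415 and 343 CPM at CT16 (0.60 ± 0.12, adjusted p = 0.0047, held without any 1 library). Dnajb1, a partner of HSP70, rose by 0.78 ± 0.20 (adjusted p = 0.0287), which was kept only without CT16 A (0.0689 to 0.133 in the others). Hsp90aa1, the inducible HSP90, rose by 1.27 ± 0.35 (adjusted p = 0.049), and its call was lost in all 6 fits (0.065 to 0.181), without the low-count filter (0.0532) and with a replicate block (0.0503). Cirbp, an RNA-binding protein induced by cold, stood at 14.9, 15.1 and 18.5 CPM at CT4 and 9.94, 10.4 and 8.37 CPM at CT16 (-0.76 ± 0.21, adjusted p = 0.0424, lost in all 6 fits, 0.0694 to 0.19, and 0.0569 by DESeq2, 0.0507 without the low-count filter and 0.0799 with the 6 libraries alone). The arginine and serine rich protein gene Rsrp1 rose by 1.01 ± 0.17 (81.3, 113 and 84.1 CPM to 201, 186 and 174 CPM, adjusted p = 0.000411), and no library overlapped. Serp1, which protects new proteins in the endoplasmic reticulum, rose by 0.68 ± 0.14 (adjusted p = 0.0042).

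The same time contrast at 6% oxygen gave 318 called genes (3.35%). Of the 208 genes called at 21%, 155 had a change of the same sign at 6%. The median at 6% was 0.25 for the 81 higher and -0.21 for the 127 lower genes. At 21%, where these genes were picked, the medians were 0.91 and -0.91. Both oxygen levels gave a call of the same sign for 24 genes, 12 higher and 12 lower, which is 11.5% of the 208 and 7.55% of the 318, and no gene was called in opposite directions. Serp1, Arg1, Tuba4a, a tubulin, and Hsp90aa1 were among those higher, and Ndrg1 (a call at 21% that no fit without 1 library kept, at 0.0523 by DESeq2 and 0.0542 without the low-count filter), H6pd, which makes NADPH in the endoplasmic reticulum, and Sema6b, a semaphorin, among those lower. Serp1 changed by 0.68 at 21% and 0.71 at 6%, and H6pd by -0.68 and -0.96. For 79 genes (0.833%) the difference of the time change between the oxygen levels was itself called, and 28 of these were among the 208, 20 that were lower and 8 that were higher at CT16 at 21%. The count of 79 dropped to 5 without CT4 6% C, to 22 without CT16 21% A and to 27 without CT4 21% A. Mt1, Mt2 and Tacc2, a centrosomal protein, kept the called difference without any of the 12 libraries. Tacc2 stood at 83.6, 43.3 and 18.5 CPM at CT4 and 8.65, 8.11 and 8.37 CPM at CT16 at 21% oxygen (-2.49 ± 0.36) and changed by 0.52 at 6%.

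**Figure D4:**
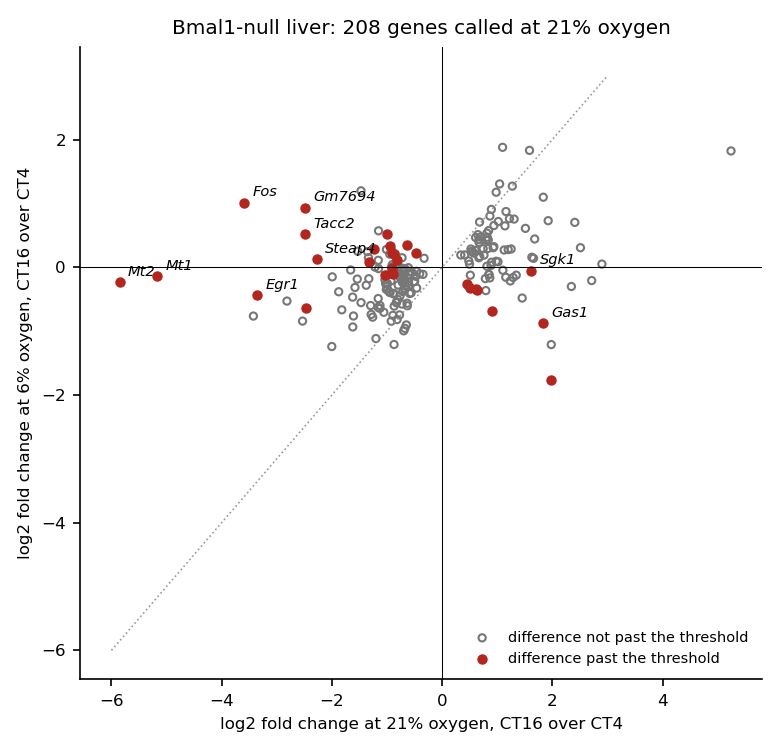
Log2 fold changes of CT16 over CT4 at 21% oxygen (horizontal axis) and at 6% oxygen (vertical axis) for the 208 genes called at 21% in Bmal1-null liver, each point a gene, filled where the difference between the oxygen levels was called, with a dotted line of equal change. Mt1 and Mt2 lie at -5.17 and -5.85 at 21% oxygen and at -0.14 and -0.23 at 6%.

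Against Alb-Cre liver, where 120 genes (1.27%) were called for time of day, 12 genes had calls of the same sign in both genotypes, 5.77% of the 208 and 10% of the 120. Another 7 were called in opposite directions, among them Angptl4, Cdkn1a, Clpx, Fam20c, Pxmp4 and Srebf1. Called or not, 140 of the 208 had the same sign in Alb-Cre liver, with a median there of 0.15 for the 81 higher and -0.12 for the 127 lower genes. The difference between the genotypes was called for 71 genes (0.749%), and 33 of these were among the 208, 21 lower and 12 higher at CT16 in Bmal1-null liver. Fam124a stood at 40.6, 58.0 and 31.6 CPM at CT4 and 5.89, 10.4 and 7.51 CPM at CT16 (-2.47 ± 0.31, adjusted p = 1.48e-05), and the change minus that in the controls was -2.63 ± 0.47 (adjusted p = 0.00149). Clpx, a subunit of the mitochondrial protease ClpXP, fell by 0.59 ± 0.16 in Bmal1-null liver (adjusted p = 0.0431, lost in all 6 fits, 0.0679 to 0.177, and 0.0545 without the low-count filter and 0.0548 with a replicate block) and rose by 1.17 ± 0.17 in the controls, a difference of -1.76 ± 0.23 (adjusted p = 1.93e-05). The called difference of Fam124a and of Clpx held without any of the 12 libraries.

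Markers of other cells gave no call. Of 44 tested, among them 11 of Kupffer cells, 15 of endothelium and 9 of stellate cells and fibroblasts, 0 were called by edgeR, 7 had an unadjusted p under 0.05 and DESeq2 called 1, the neutrophil gene S100a9 (adjusted p = 0.0494). The share called by edgeR over all tested genes was 2.19%. Summed levels at CT4 and CT16 were 235 to 293 and 221 to 389 CPM for Kupffer cells, 268 to 290 and 251 to 342 CPM for endothelium, and 94.2 to 134 and 122 to 181 CPM for stellate cells. The 13 hepatocyte markers with rows summed to 83000 to 93000 CPM at CT4 and 95800 to 98400 CPM at CT16, a narrow gap without overlap. The CT16 A library carried adipose transcripts, with 28 counts of Cfd and 7 of Adipoq against 0 or 1 in each of the other 5. Gene groups without a call by edgeR or DESeq2 included 24 cholesterol synthesis genes (median -0.20), 18 bile acid genes (-0.04), 16 interferon response genes (-0.03), 21 unfolded protein response genes (0.26) and 17 glycolysis genes (-0.06). At an unadjusted p under 0.05 they held 1, 3, 2, 4 and 4 genes. Of the unfolded protein response genes, 8 were called higher at 6% oxygen.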

How the data were processed

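RNA of mouse liver was sequenced, and 36 of the 39 samples of the series have columns in the table, in 12 groups of 3. The double knockout, with 3 samples, was left out. As deposited by the authors, raw columns give whole read counts for each gene symbol. Normalized columns, a signal that the authors derived from these counts, entered no test. Tools credited to the submitters' processing notes are HTSeq, cutadapt, DESeq2 and STAR 2.4.2a, with mm10 as the genome build. The strand setting and the handling of reads that match several genes are not given in the sources used here, so close paralogs such as Mt1 and Mt2 or Saa1 and Saa2, and overlapping genes, may share reads.

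Of 11873 genes, filterByExpr with a count minimum of 10 kept 9483. Counts were scaled by TMM and all 36 libraries were fitted with the quasi-likelihood model of edgeR 4.0.16 in R 4.3.3, with 1 mean per group and 24 residual degrees of freedom. The contrasts were CT16 minus CT4 in BLKO at 21% and at 6% oxygen and in Alb at 21%, and the differences between them. Tests are two-sided, p-values were adjusted by Benjamini and Hochberg within each contrast, and a call means an adjusted p below 0.05. CPM values use the TMM library sizes. DESeq2 1.42.0, RLE scaling, no filter, a fit on the compared groups, a replicate block and leaving out each library were the alternatives. The fits were tested on simulated data. Replicates differed beyond counting error (chi-square per degree of freedom from 3.708 to 12.71). Replicate letters did not pair the libraries across times (r = 0.0256, 0.0135 and 0.0444 for A, B and C).

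Members and gene lists were chosen with earlier results of these data known. Results of some genes are not reported here, though they count in the totals. Lists are described by counts of called members and their median, without a test of the list. Named genes came from a rule: the core clock genes, Mt1 and Mt2, the 15 highest and 15 lowest called genes that reached 5 CPM in a group and kept the times apart, up to 4 called members of each list (up to 2 where none was called), the 8 largest called differences from Alb, and the 5 most abundant called genes. The text gives most room to the genes of that set whose call held without each library, which was decided with the values in view. Cebpb, Myd88, Tnfrsf1a, Klf15, Serp1, Rsrp1, Pnpla2, Pxmp4, Clpx, Fam20c, H6pd, Tuba4a, Bcl3, Icam1, Socs3, Saa1, Saa2, S100a9, Cfd, Adipoq and the mitochondrial, nuclear and other genes of the closing section outside the rule were likewise chosen after their values were seen. Positions came from GENCODE M21 (GRCm38), which matched 98.7% of tested symbols, and promoters from RefSeq (GRCm38.p6), which had 175 of the 208 called genes. Plots used matplotlib 3.10.9 (Python 3.11.15).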

Additional observations from a re-analysis of the deposited data

Results flagged for a closer look

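For 43 of the gene values reported, the time effect itself differed between groups at an adjusted p under 0.05 in edgeR, with n = 3 libraries per group, and each is given here as the log2 difference. Whether the difference rests on the genotype or on the oxygen, or on other ways in which these livers differed, was not tested.

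Against Alb-Cre liver at 21% oxygen, the time effect in Bmal1-null liver was lower by these log2 differences: -4.17 for Mt1, -5.30 for Mt2, -3.24 for Egr1, -2.92 for Cdkn1a, -2.83 for Igfbp1, -2.65 for Cry1, -2.63 for Fam124a, -2.50 for Tacc2, -2.33 for Sema6b, -2.18 for Pxmp4, -2.03 for Angptl4, -1.76 for Clpx, -1.41 for Fga, -1.12 for Cebpb, -1.01 for Jund, -0.836 for H6pd and -0.776 for Slc25a47. It was higher by 3.94 for Dbp, 3.90 for Ihh, 3.14 for Nr1d1, 2.82 for Noct, 2.68 for Mid1ip1, 2.06 for Srebf1, 1.56 for Fam20c, 0.894 for Tuba4a and 0.885 for Klf15. Of the 12 fits that each left out 1 library, the difference was called in all 12 for Mt2, Cdkn1a, Igfbp1, Cry1, Fam124a, Sema6b, Pxmp4, Angptl4, Clpx, Cebpb, Dbp, Nr1d1, Noct, Mid1ip1, Fam20c and Srebf1. It was called in 11 for Mt1 and Ihh, in 10 for Egr1 and Tacc2, in 4 for Jund and Klf15, in 3 for Fga and Tuba4a and in 2 for H6pd and Slc25a47.

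Between the oxygen levels in Bmal1-null liver, the time effect at 21% lay below that at 6% by these log2 differences: -5.62 for Mt2, -5.03 for Mt1, -4.61 for Fos, -3.42 for Gm7694, -3.01 for Tacc2, -2.93 for Egr1, -2.39 for Steap4, -1.83 for Fam124a, -1.53 for Lpin1, -1.52 for Serpina3n, -1.14 for Myd88, -1.08 for Cdkn1a, -0.938 for Slc25a22, -0.921 for Cebpb and -0.787 for Slc25a47. It lay above by 2.70 for Gas1 and 1.67 for Sgk1. The call held in all 12 fits without 1 library for Mt1, Mt2 and Tacc2, in 11 for Gas1, in 10 for Cdkn1a and Cebpb, in 8 for Steap4, Lpin1 and Sgk1, in 7 for Gm7694 and Slc25a22, in 4 for Egr1, Fos and Myd88, in 3 for Fam124a and in 2 for Serpina3n and Slc25a47.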

How the results depend on the processing

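The 208 genes called for time of day in Bmal1-null liver at 21% oxygen became 224 with DESeq2, 202 with RLE scaling, 173 without the filter and 196 in the fit on the 6 libraries, and of the 208 these kept 188, 199, 172 and 140. With a replicate block the count was 189 (184 of them among the 208), and the letters did not pair the libraries (r under 0.1 for each). Without 1 library the count ran from 75 to 143. The count at 6% oxygen ran from 145 to 214 against 318, and that in Alb-Cre liver from 42 to 114 against 120, with 69 in the fit on the compared groups. The difference between genotypes ran from 37 to 85 against 71, with 113 by DESeq2, and the difference between oxygen levels from 5 to 77 against 79. With the block these counts were 301, 114, 74 and 85.

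For 91 genes with up to 11 alternatives each, 784 values kept their direction and side of the threshold, 200 kept the direction but missed the threshold, 5 newly passed it and 6 changed sign. All 6 were uncalled genes without 1 library: over the 6 fits that left out a library, Cry2 ran from -0.033 to 0.12, Dbp from -0.20 to 0.38 and Nr1d2 from -0.099 to 0.82. The cause was not tested. The lists of metallothionein and zinc genes, of immediate early genes and of fatty acid oxidation and PPARA targets kept at least 2 called members under all 11 alternatives. The STAT3 and NF-kB feedback list kept at least 4, and the glucocorticoid list kept at least 3 lower members. The acute phase and heat shock lists fell to 1 in some fits without 1 library.

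Depth limits genes such as Fos, Ihh, Nr1d2 and Clock, which held few counts, and CT16 was sequenced more deeply than CT4.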

Other observations

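Ihh, a secreted ligand of the hedgehog pathway, was among the 15 highest called genes of the naming rule, as was Gas1, and no list of that pathway was examined. Ihh stood at 0, 0.82 and 1.79 CPM at CT4 and 7.55, 6.37 and 3.18 CPM at CT16 (2.51 ± 0.57, adjusted p = 0.0144, lost without CT4 A, 0.0905, CT4 B, 0.0656, or CT16 A, 0.0721). Gas1, a co-receptor for hedgehog ligands, stood at 5.14, 3.68 and 5.67 CPM and 12.9, 16.5 and 23.7 CPM (1.83 ± 0.39, adjusted p = 0.0086, lost without CT4 B, 0.0536, or CT16 C, 0.0598). Ppp1r3c, which targets a phosphatase to glycogen, rose by 1.15 ± 0.27 (31.3, 57.6 and 37.6 CPM to 61.7, 107 and 115 CPM, adjusted p = 0.0165, lost without CT4 A, 0.118, CT4 C, 0.0838, CT16 B, 0.0759, or CT16 C, 0.0932). It was also called higher in Alb-Cre liver, by 1.67.

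A pair of carriers of the inner mitochondrial membrane, picked with their values in view, kept their calls without any 1 library, and carriers as a group were not examined. Slc25a47, a liver-specific carrier, stood at 673, 639 and 712 CPM at CT4 and 369, 346 and 375 CPM at CT16 (-0.89 ± 0.13, adjusted p = 0.000112). Slc25a22, a glutamate carrier, stood at 396, 597 and 453 CPM and 307, 234 and 276 CPM (-0.82 ± 0.15, adjusted p = 0.0019). Sun2, which links the nuclear envelope to the cytoskeleton, fell by 0.89 ± 0.18 at 21% oxygen and by 0.75 at 6%. Xpa, a DNA repair protein whose expression is known to be clock-controlled in mouse liver, fell by 0.72 ± 0.13 (29.0, 32.7 and 35.2 CPM to 19.7, 20.0 and 19.3 CPM, adjusted p = 0.00224), and its value in Alb-Cre liver was -0.36.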
